A study of Mus musculus with 7 samples.

Results

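The cytosolic iron-sulfur cluster assembly (CIA) machinery consists of 10 genes, Nubp1, Nubp2, Ciapin1, Ndor1, Glrx3, Ciao3, Ciao1, Ciao2a, Ciao2b and Mms19, and was examined in sorted mouse erythroblasts that lack or carry superoxide dismutase 2 (SOD2). Its members were taken by name, as every probe set of the array that the platform annotation matches to a member alone. By this rule 9 of the 10 genes were measured by 17 probe sets, out of 18193 genes and 45037 probe sets on the array that are not controls. The expression of Ndor1 was not analysed here, while its promoter is counted with those of the other members. Sod2-/- erythroblasts (n = 3, replicates 31, 35 and 39) were compared with Sod2+/+ erythroblasts (n = 4, replicates 17, 29, 33 and 37). All carried the TER-119 and CD71 surface antigens and were sorted from marrow of female C57BL/6 Ly5.1 hosts that had been lethally irradiated and reconstituted with fetal liver cells of Sod2-/- or Sod2+/+ littermates (embryonic day 13.5 to 16.5, from matings of heterozygous B6-Sod2tm1Cje mice). The hosts were 11 to 15 weeks old at transplant, and only the transplanted cells and their progeny carried the deletion. Cells that a host kept of its own were not told apart here. Another Sod2-/- array named in the design is not among the values used here. The study compared 4 arrays of each genotype and saw slight RNA degradation in a Sod2-/- specimen. The sources do not say whether the arrays came from separate hosts, so the p-values cover no more than the spread among these 7 samples. Sod2 itself, on its brightest probe set, lay between 8.09 and 8.61 in Sod2-/- arrays, against 8.20 to 8.62 in Sod2+/+ arrays (log2 scale), and since some of its probes lie outside the deleted part these values do not check the genotype.

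Iron-sulfur clusters are built in mitochondria and, for proteins of the cytosol and nucleus, in the cytosol. The cytosolic pathway needs a sulfur-bearing product that mitochondria make and export, and it starts on a scaffold formed by NUBP1 and NUBP2, which receives electrons through NDOR1 and CIAPIN1. CIAO3 then bridges to a targeting complex of CIAO1, CIAO2B and MMS19 that hands clusters to DNA polymerases, primase, helicases and other proteins, while CIAO2A joins CIAO1 in a separate complex that serves iron regulatory protein 1, the cytosolic aconitase encoded by Aco1. GLRX3 is a glutaredoxin that carries clusters and works with BOLA2. Developing erythroblasts take up large amounts of iron for heme, and superoxide, the substrate of SOD2, is known to attack exposed iron-sulfur clusters.

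In Sod2-/- erythroblasts 4 of the 9 measured CIA genes were lower than in Sod2+/+ erythroblasts, Ciao1, Ciao2a, Nubp2 and Ciapin1, and 0 were higher, at an adjusted p under 0.05 from limma. Over all genes the background was 4.47% lower and 0.412% higher. The decreases were modest, between 1.30-fold for Ciapin1 and 1.72-fold for Ciao2a. Of the 9 members 3 were called with a decrease above 1.5-fold, against 2.8% of all genes. Among all 813 genes called lower, 510 reached 1.5-fold, beside 3 of the 4 called members. At an unadjusted p under 0.05, 6 members were lower and 0 higher, against 18.4% and 6.68% of all genes. In 6 members every Sod2-/- value lay below every Sod2+/+ value, against 14.8% of all genes. Of the 17 probe sets 5 were lower (background 2.83%), and 10 at an unadjusted p under 0.05 (background 12.5%). The median log2 fold change of the 9 members, Sod2-/- minus Sod2+/+, was -0.43, with 8 below 0 and 1 above, while the median of all genes was 0.02.

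Brighter genes were lower in Sod2-/- erythroblasts as a whole, so the members are also set beside genes of their own signal. Among genes with a mean log2 value from 6 to 8, 12.2% were called lower and the median log2 fold change was -0.21. Here 2 of the 5 members in that range were called, Ciao1 and Nubp2, while Ciao2b, Ciao3 and Nubp1 were not. From 8 to 10, 13.5% of genes were called lower, the median was -0.29, and both members in that range, Ciao2a and Ciapin1, were called. The 2 remaining members, Mms19 and Glrx3, had means from 4 to 6, where the median of all genes was 0.05. The 6 members without overlap, also the 6 lower at an unadjusted p under 0.05, all had means from 6 to 10. Every Sod2-/- value was below every Sod2+/+ value in 1205 of 3630 genes from 6 to 8 and 543 of 1435 from 8 to 10. At an unadjusted p under 0.05 from limma, 1530 and 710 of these genes were lower. Array brightness differed as well, with a 95th percentile of 8.20 to 8.42 in Sod2-/- and 8.42 to 8.71 in Sod2+/+ arrays. Under quantile normalization the median log2 fold change of genes with means from 6 to 10 was -0.03, against -0.23 as deposited. These shares and medians therefore depend on the normalization, and the source of the shift was not tested. Fewer cells of a type and less RNA per cell cannot be told apart in such sorted bulk samples.

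**Figure D1:**
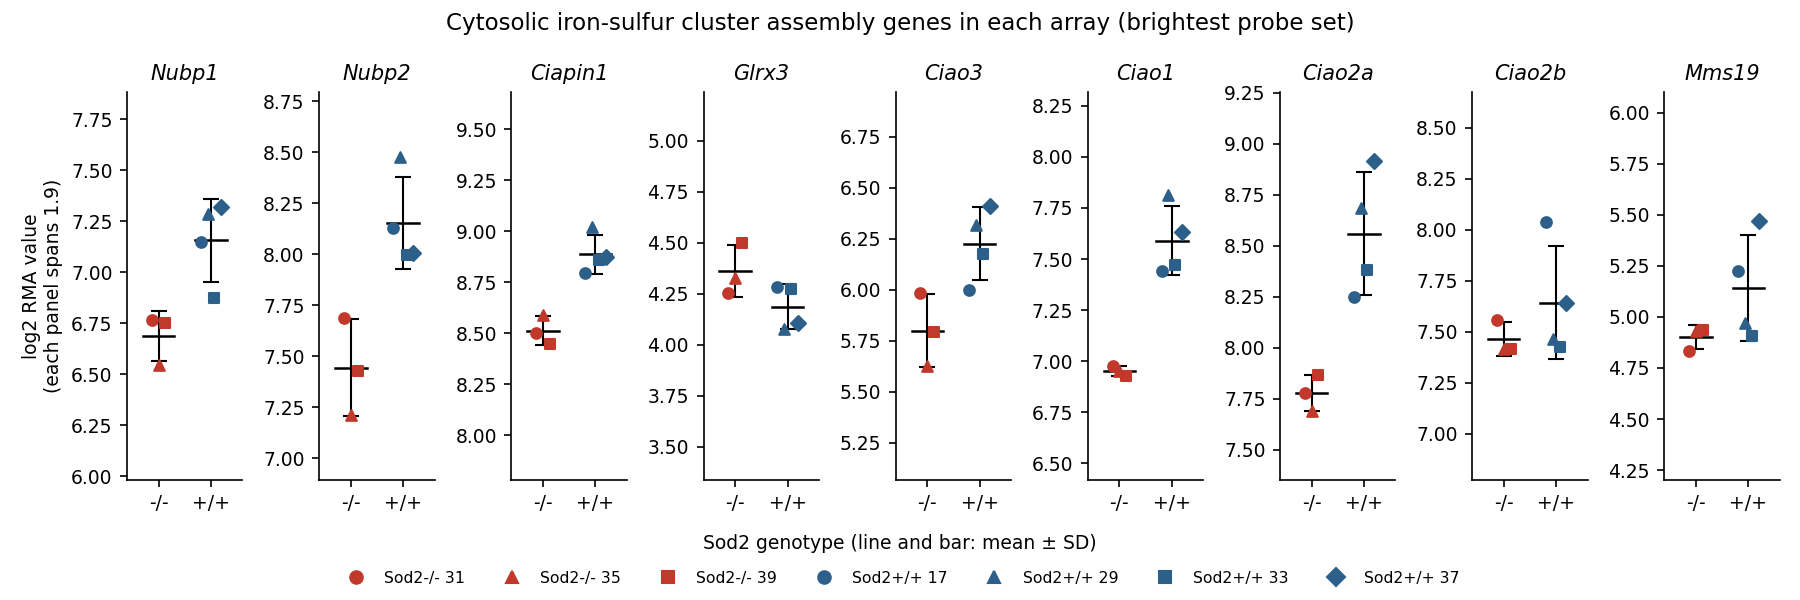
Log2 RMA values of the 9 measured CIA genes on the brightest probe set of each, with Sod2-/- arrays (red) left of Sod2+/+ arrays (blue), 1 point per array, and the mean ± SD of each genotype. The genotypes do not overlap for Nubp1, Nubp2, Ciapin1, Ciao3, Ciao1 and Ciao2a, and overlap for Glrx3, Ciao2b and Mms19. Each panel has its own axis, and heights are not comparable between panels.

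The 4 genes that passed lie on 4 chromosomes. Their promoters are shown because these members passed the threshold, and whether they share regulation was not tested. Each runs from 250 bases before to 50 bases after the RefSeq transcript start, 5′ to 3′ on the strand of its gene. The start is the listed one nearest the outer end of the gene (GRCm38.p6). Capitals mark matches on either strand to motifs of factors that often bind housekeeping or erythroid promoters.
Ciao1, chr2:127247767-127248066, minus strand: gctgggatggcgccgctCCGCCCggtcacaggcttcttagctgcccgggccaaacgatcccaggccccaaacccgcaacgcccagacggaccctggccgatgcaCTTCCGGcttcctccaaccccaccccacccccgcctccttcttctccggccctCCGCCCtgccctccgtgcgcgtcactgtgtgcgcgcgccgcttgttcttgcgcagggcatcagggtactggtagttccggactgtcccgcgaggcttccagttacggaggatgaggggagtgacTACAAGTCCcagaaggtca
Ciao2a, chr9:66126361-66126660, plus strand: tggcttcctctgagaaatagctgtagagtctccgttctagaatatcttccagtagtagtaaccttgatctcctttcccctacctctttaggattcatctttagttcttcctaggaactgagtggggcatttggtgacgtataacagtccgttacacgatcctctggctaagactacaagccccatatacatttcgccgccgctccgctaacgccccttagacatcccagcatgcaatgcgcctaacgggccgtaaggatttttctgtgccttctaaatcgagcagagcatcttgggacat
Nubp2, chr17:24886301-24886600, minus strand: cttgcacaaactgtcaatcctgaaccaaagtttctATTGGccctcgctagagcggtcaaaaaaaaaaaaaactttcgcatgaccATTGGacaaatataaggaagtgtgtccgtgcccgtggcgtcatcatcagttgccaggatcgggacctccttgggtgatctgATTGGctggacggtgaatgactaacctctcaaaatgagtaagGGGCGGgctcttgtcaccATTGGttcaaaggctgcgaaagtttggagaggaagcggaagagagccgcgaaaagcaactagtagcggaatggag
Ciapin1, chr8:94838291-94838590, minus strand: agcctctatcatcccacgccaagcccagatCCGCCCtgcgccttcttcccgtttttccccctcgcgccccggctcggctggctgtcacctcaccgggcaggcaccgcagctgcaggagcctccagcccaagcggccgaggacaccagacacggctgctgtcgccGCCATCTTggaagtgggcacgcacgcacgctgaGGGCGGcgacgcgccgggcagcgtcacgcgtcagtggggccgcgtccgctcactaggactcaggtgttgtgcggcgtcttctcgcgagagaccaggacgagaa
The motifs searched were GCGCNTGCG (NRF1), CCGGAAG (ETS family), AAGATGGC (YY1), TACANNTCC (ZNF143), CACGTG (E-box), GGGCGG (GC box), AGATAA (bound by erythroid factors of the GATA family) and CCAAT (the box of that name). They were chosen after the sequences had been seen, and no matches overlapped in the promoters of the members. The promoter of Ciao1 held an ETS match 146 bases before the start, a ZNF143 match from base 32 of the transcript and 2 GC boxes. That of Ciapin1 held a YY1 match 86 bases before the start and 2 GC boxes, and that of Nubp2 a GC box 43 bases before the start and 4 CCAAT boxes. The promoter of Ciao2a held no match. Over the promoters of all 10 members, GC boxes were found in 6, against 35.7% of 32851 RefSeq promoters of this length, and CCAAT boxes in 4, against 37.4%. NRF1 matches occurred in 2 members, those of Nubp1 and Mms19, against 6.31% of promoters. An ETS, a YY1, a ZNF143 or an E-box match occurred in 1 member each, against 8.86%, 2.75%, 4.43% and 7.15%, and a GATA match in 0, against 11.2%. A match is a description of the letters and not of binding.

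The scaffold subunits NUBP1 and NUBP2 are related nucleotide-binding proteins that hold newly formed clusters. On the log2 scale Nubp2 had 7.69, 7.21 and 7.43 in Sod2-/- replicates 31, 35 and 39, against 8.13, 8.48, 8.00 and 8.01 in Sod2+/+ replicates 17, 29, 33 and 37. All Sod2-/- values were below all Sod2+/+ values, and the gene was 1.63-fold lower (log2 fold change -0.71, standard error 0.15, adjusted p = 0.0402). A second and dimmer probe set gave -0.75 (standard error 0.24), with overlapping genotypes and an adjusted p of 0.136. Nubp1 had 6.76, 6.55 and 6.75 in Sod2-/- replicates 31, 35 and 39, against 7.15, 7.28, 6.87 and 7.32 in Sod2+/+ replicates 17, 29, 33 and 37. These values did not overlap either, and the log2 fold change of -0.47 (standard error 0.12) did not pass the threshold (adjusted p = 0.0681). The other 2 probe sets of Nubp1 gave -0.27 (adjusted p = 0.180) and -0.09 (adjusted p = 0.575). Within the pair, the log2 fold change of Nubp2 minus that of Nubp1 was -0.24 (exact two-sided permutation test over the 7 arrays, p = 0.114, and 0.229 after adjustment over the 2 pairs tested). The smallest p that 4 against 3 arrays allow is 0.0571, so this design could not pass 0.05.

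Ciapin1, the electron carrier known in yeast as Dre2, was read by 4 probe sets. On the brightest it had 8.50, 8.59 and 8.45 in Sod2-/- replicates 31, 35 and 39, against 8.79, 9.02, 8.86 and 8.88 in Sod2+/+ replicates 17, 29, 33 and 37. This was the smallest of the 4 called decreases, 1.30-fold, and had the narrowest spread (log2 fold change -0.37, standard error 0.08, adjusted p = 0.0393). Its other probe sets disagreed among themselves, at -0.41 without overlap (adjusted p = 0.171), -0.06 (adjusted p = 0.893) and 0.10 (adjusted p = 0.644). With the mean of all 4 probe sets in place of the brightest, Ciapin1 had a log2 fold change of -0.19 (adjusted p = 0.248). It also missed the threshold whichever single array was left out, with adjusted p-values from 0.0551 to 0.105.

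Glrx3 was the only member above 0. Its own probe set was dim, at the 41.4th percentile of all probe sets by mean, with 4.25, 4.33 and 4.50 in Sod2-/- replicates 31, 35 and 39, against 4.29, 4.08, 4.28 and 4.11 in Sod2+/+ replicates 17, 29, 33 and 37. The genotypes overlapped (log2 fold change 0.18, standard error 0.09, adjusted p = 0.325). Another 4 probe sets match both Glrx3 and Gm12669, a transcribed pseudogene on chromosome 4, and were left out of the counts since the signal of both transcripts cannot be told apart. The brightest of these had 4.28, 4.08 and 4.41 in Sod2-/- replicates, against 4.67, 4.99, 4.75 and 4.93 in Sod2+/+ replicates, without overlap (log2 fold change -0.58, standard error 0.11, adjusted p = 0.0314). The next gave a larger difference and missed the threshold (-0.89, standard error 0.20, adjusted p = 0.0525), and the 2 dimmest gave 0.21 and -0.13 (adjusted p = 0.341 and 0.373). The direction given for Glrx3 therefore depended on which probe set was read.

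**Figure D2:**
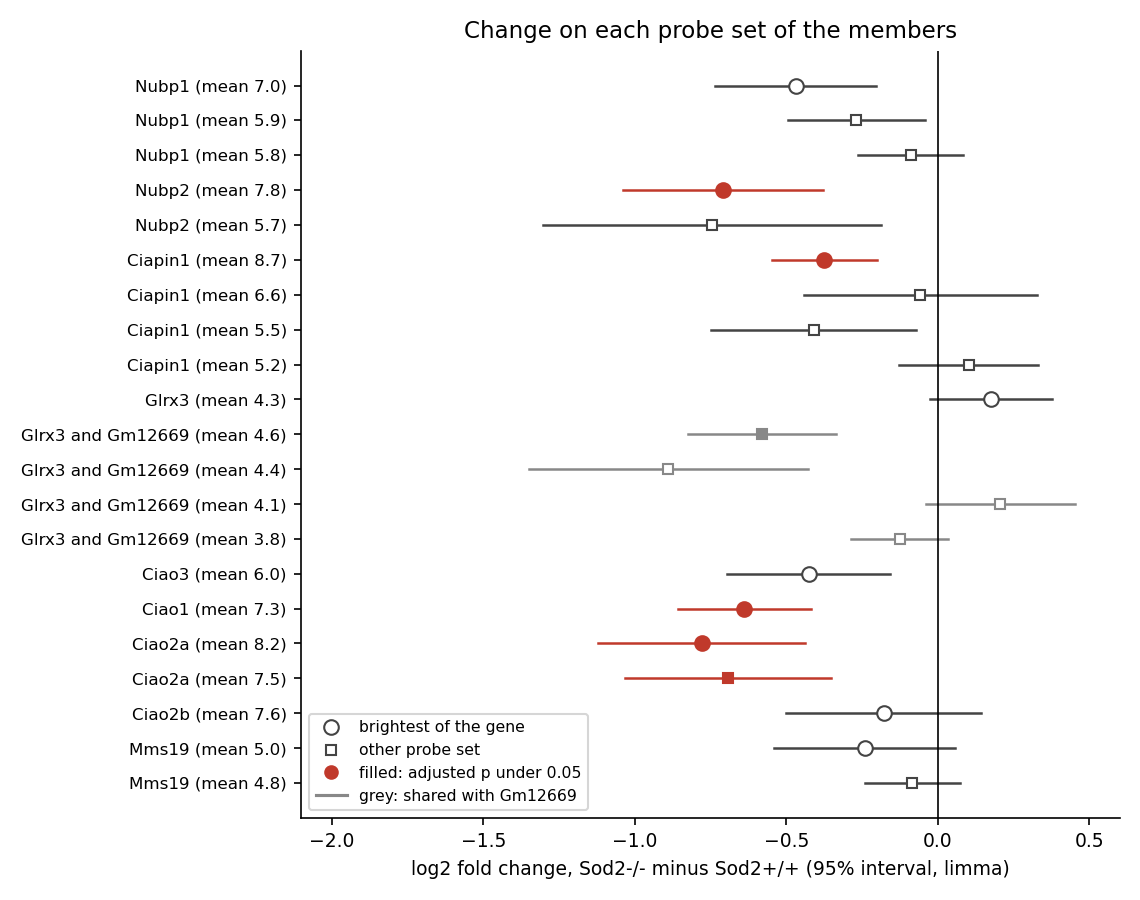
Log2 fold change, Sod2-/- minus Sod2+/+, with its 95% confidence interval from limma, for each of the 17 probe sets of the members and, in grey, the 4 shared by Glrx3 and Gm12669. Labels give the gene and the mean log2 value over all arrays. Filled points passed an adjusted p of 0.05, and they are the brightest probe sets of Nubp2, Ciapin1, Ciao1 and Ciao2a, the second of Ciao2a and 1 shared probe set.

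Ciao3, the hydrogenase-like protein that links the scaffold to the targeting complex, had 5.98, 5.63 and 5.79 in Sod2-/- replicates 31, 35 and 39, against 6.00, 6.32, 6.18 and 6.41 in Sod2+/+ replicates 17, 29, 33 and 37. The genotypes were separated only by the narrow gap between Sod2-/- replicate 31 and Sod2+/+ replicate 17. The log2 fold change of -0.43 (standard error 0.12) had an adjusted p of 0.0884.

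In the targeting complex the WD-repeat protein CIAO1 is the subunit common to both branches. Ciao1 had 6.98, 6.95 and 6.92 in Sod2-/- replicates 31, 35 and 39, against 7.44, 7.81, 7.47 and 7.63 in Sod2+/+ replicates 17, 29, 33 and 37. The Sod2-/- arrays were nearly identical and well below all Sod2+/+ arrays, with a 1.56-fold decrease (log2 fold change -0.64, standard error 0.10, adjusted p = 0.0209). It was the member with the lowest adjusted p. Ciao2a, the subunit of the branch for iron regulatory protein 1, had 7.78, 7.69 and 7.87 in Sod2-/- replicates 31, 35 and 39, against 8.25, 8.69, 8.38 and 8.92 in Sod2+/+ replicates 17, 29, 33 and 37. It was 1.72-fold lower, the largest change of a member (log2 fold change -0.78, standard error 0.15, adjusted p = 0.0351). Its second probe set was lower as well (-0.69, standard error 0.15, adjusted p = 0.0455). Neither probe set overlapped between genotypes.

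The other subunits of the main branch did not pass. Ciao2b had 7.56, 7.41 and 7.42 in Sod2-/- replicates 31, 35 and 39, against 8.04, 7.47, 7.43 and 7.64 in Sod2+/+ replicates 17, 29, 33 and 37. Sod2+/+ replicate 17 was the highest array, the others overlapped, and the log2 fold change was -0.18 (95% interval from -0.50 to 0.14, adjusted p = 0.542). Mms19, a large adaptor first found in yeast DNA repair mutants, had 4.83, 4.93 and 4.94 in Sod2-/- replicates, against 5.22, 4.97, 4.91 and 5.47 in Sod2+/+ replicates 17, 29, 33 and 37. The genotypes overlapped (log2 fold change -0.24, 95% interval from -0.54 to 0.06, adjusted p = 0.361), and its second probe set gave -0.08 (adjusted p = 0.561). The log2 fold change of Ciao2a minus that of its paralog Ciao2b was -0.60, which the exact two-sided permutation test over 7 arrays did not separate (p = 0.229, and 0.229 after adjustment over the 2 pairs). Sod2+/+ replicate 17 was the array with the smallest gap between these paralogs among Sod2+/+ arrays, at 0.22, against 1.22, 0.96 and 1.27 in replicates 29, 33 and 37, while the gap was 0.22, 0.28 and 0.45 in Sod2-/- replicates 31, 35 and 39.

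The number of calls depended on single arrays. Ciao1 missed the threshold without Sod2+/+ replicate 37, Sod2-/- replicate 35 or Sod2-/- replicate 39 (adjusted p = 0.0577, 0.0738 and 0.0529) and passed without each of the other 4. Ciao2a passed without Sod2+/+ replicate 17 or 33 (adjusted p = 0.0316 and 0.0428) and missed without each of the other 5, with adjusted p-values up to 0.120. Nubp2 passed without Sod2-/- replicate 31 (adjusted p = 0.0394) and missed without each of the other 6, with adjusted p-values up to 0.132. Nubp1 passed without Sod2+/+ replicate 33 (adjusted p = 0.0300). The log2 fold changes moved little, from -0.69 to -0.56 for Ciao1, from -0.88 to -0.66 for Ciao2a and from -0.83 to -0.59 for Nubp2. Calls over all genes fell with them, to 64 lower genes without Sod2-/- replicate 35 and 110 without Sod2+/+ replicate 37, against 813 with all arrays.

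Arrays differed in fluidics station and in chip lot. Sod2-/- replicate 31 and Sod2+/+ replicates 17 and 29 were run on station 1 and the others on station 2. Within stations 1 and 2 the log2 fold changes were -0.65 and -0.61 for Ciao1, -0.69 and -0.87 for Ciao2a, -0.61 and -0.68 for Nubp2 and -0.40 and -0.35 for Ciapin1. Limma called 0 genes lower over the whole array within either station, so the absence of calls there says nothing of the members. On station 2, with 2 arrays of each genotype, 5 members were lower at an unadjusted p under 0.05, against 13.3% of all genes. With station as a block Ciao1 (adjusted p = 0.0356) and Nubp2 (adjusted p = 0.0339) passed, while Ciao2a (adjusted p = 0.0525) and Ciapin1 (adjusted p = 0.0667) did not. All Sod2+/+ arrays and Sod2-/- replicate 35 shared a chip lot. Within that lot the changes were -0.64, -0.87, -0.94 and -0.30 for Ciao1, Ciao2a, Nubp2 and Ciapin1, with 0 members past the threshold, against 1.62% of all genes called lower. Station 1 and this lot hold a single Sod2-/- array, whose spread was taken to equal that of the Sod2+/+ arrays beside it, so these values have no replicate check on the Sod2-/- side.

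The CIA machinery serves iron-sulfur proteins of the cytosol and nucleus, of which 25 were listed and measured. Of these 0 were called in either direction by limma, against 4.47% of all genes lower and 0.412% higher. At an unadjusted p under 0.05, 10 were lower and 1 higher, against 18.4% and 6.68% of all genes. Their median log2 fold change was -0.11. Some of the 25 were dim, and of all genes with means from 4 to 6 limma called 146 of 9604 lower. The absence of calls therefore does not show that these genes were unchanged. Among the 12 of DNA replication and repair, the largest differences were in Prim2, the large primase subunit (-0.71, adjusted p = 0.0734), and Pold1, the catalytic subunit of DNA polymerase delta (-0.55, adjusted p = 0.0545). Their 12 genes had a median of -0.15. Among the 6 of translation and RNA modification, Abce1, a ribosome recycling factor, had a log2 fold change of -0.44 (adjusted p = 0.0535) and Dph2, an enzyme of diphthamide synthesis, of 0.13 (adjusted p = 0.389), with a median of 0.02. Among the 7 of metabolism and iron sensing, the largest were Xdh, xanthine dehydrogenase (-0.67, adjusted p = 0.227), and Aco1, the client of CIAO2A (-0.37, adjusted p = 0.0867), with a median of -0.32. These are RNA levels and do not measure clusters in the proteins.

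Of the partners, Bola2, which binds GLRX3, had a log2 fold change of -0.45 (adjusted p = 0.220) and Yae1, an adaptor for the cluster protein ABCE1, of 0.05 (adjusted p = 0.781). In the iron regulatory list, made of Aco1, Ireb2, Fbxl5 and Tfrc, 0 of 4 genes passed. At an unadjusted p under 0.05, 3 were lower and 1 higher. The higher gene was the transferrin receptor gene Tfrc, a target of these proteins, with a log2 fold change of 0.20 on its brightest probe set (adjusted p = 0.175). The study reported higher Tfrc RNA in Sod2-/- cells from its arrays, which included another Sod2-/- array, and from qPCR. It also reported more of the surface protein CD71 by flow cytometry. Ireb2, which encodes iron regulatory protein 2, stood at -0.51 (adjusted p = 0.114), and the median of the list was -0.35. In the mitochondrial branch that supplies the cytosol, 14 of the 18 listed genes were measured, and 1 was called, Lyrm4, which steadies the cysteine desulfurase NFS1 (-0.63, adjusted p = 0.0497). Their median was -0.34, with 8 lower and 0 higher at an unadjusted p under 0.05. Over all genes 4.47% were called lower, and 18.4% were lower and 6.68% higher at an unadjusted p under 0.05.

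**Figure D3:**
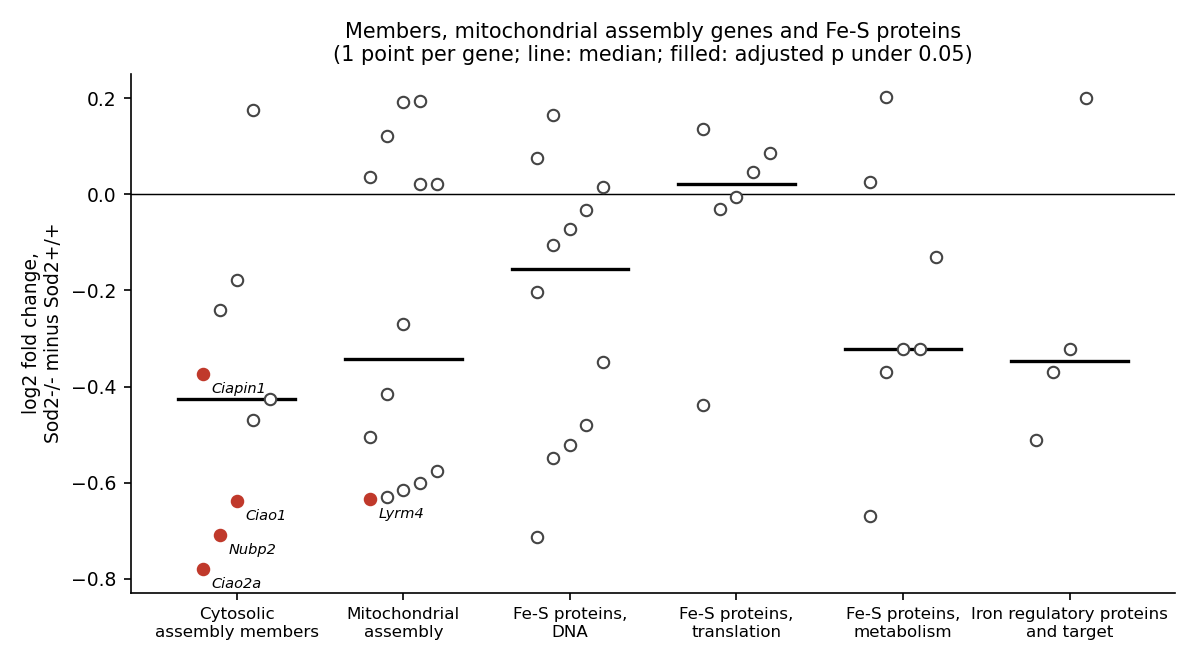
Log2 fold change, Sod2-/- minus Sod2+/+, of each measured gene of the CIA machinery, of mitochondrial iron-sulfur cluster assembly, of iron-sulfur (Fe-S) proteins and of the iron regulatory list, 1 point per gene, with the median as a line. Filled points passed an adjusted p of 0.05, 4 among the members (median -0.43), 1 among mitochondrial assembly genes (median -0.34) and 0 among the 25 Fe-S proteins. Over all genes 4.47% passed as lower and 0.412% as higher. Aco1 and Fbxl5 stand in 2 lists.

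Over the 7 arrays the genes with centred profiles nearest that of Ciao1 were Pcbp1, an RNA-binding protein that also carries iron to ferritin (root mean square difference 0.0501), Phf2, a histone demethylase (0.0515), and Pnpt1, a mitochondrial RNA-degrading enzyme (0.0543). Pcbp1 had 9.47, 9.42 and 9.47 in Sod2-/- replicates 31, 35 and 39, against 9.88, 10.21, 9.86 and 10.10 in Sod2+/+ replicates 17, 29, 33 and 37. All 3 were lower in Sod2-/- erythroblasts, with log2 fold changes of -0.56 for Pcbp1, -0.60 for Phf2 and -0.63 for Pnpt1 (adjusted p = 0.0267, 0.0379 and 0.0334). They were chosen out of 18193 genes for likeness to Ciao1, so their direction is no separate result.

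Nubp2 and Ciao3 lie on chromosome 17, as does the targeted Sod2, at 11.9 and 12.8 Mb from the start of Sod2 (GRCm38.p6). Flanking DNA of the embryonic stem cells in which a gene was targeted can stay linked to it through crosses. Genes 10 to 15 Mb from Sod2 were called in 13.0% of 154 cases, 18 lower and 2 higher, against 4.85% of genes on all other chromosomes. The share was 2.08% of the 48 genes on the other side of Sod2, and on the side of both members 3.45% of the 29 genes up to 5 Mb away, 13.0% of 23 genes at 5 to 10 Mb, 4.60% of 87 at 15 to 20 Mb, 7.23% of 166 at 20 to 30 Mb, and 3.76% and 4.26% of the 186 and 141 genes farther on. In the window of Nubp2 and Ciao3, Ift140 was lower (-4.47, adjusted p = 1.42e-05) and E4f1 was higher (1.45, adjusted p = 0.00441). Beside Nubp2, its neighbour Spsb3 was lower (-0.72, adjusted p = 0.0250), while Hagh, Fahd1, Igfals, Eme2 and Mrps34 were not called. Around Ciao3, 0 of its 6 nearest measured genes were called. Position and genotype cannot be told apart for these 2 members. Ciao1, Ciao2a and Ciapin1 lie on other chromosomes, and an effect of the linked DNA on them was not tested.

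**Figure D4:**
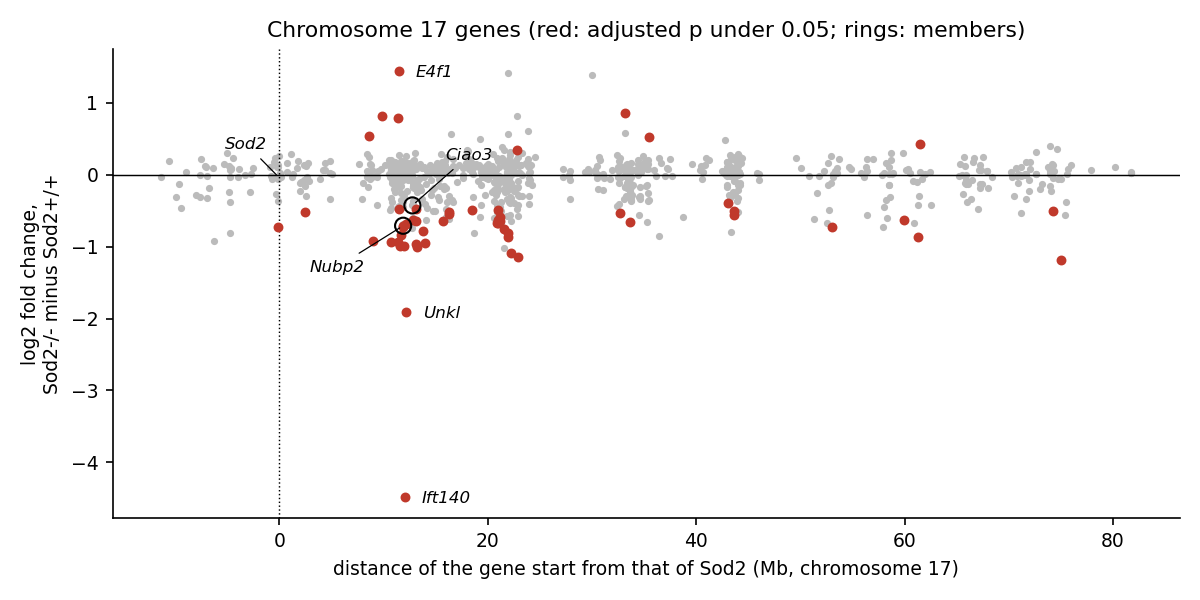
Log2 fold change, Sod2-/- minus Sod2+/+, of genes on chromosome 17 by the distance of the gene start from that of Sod2 in Mb. Red points passed an adjusted p of 0.05, and rings mark Nubp2 (-0.71) and Ciao3 (-0.43), which sit among the genes 10 to 15 Mb from Sod2.

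The mean log2 value of the 10 measured erythroid markers was between 11.5 and 11.7 in Sod2-/- arrays, against 11.5 to 11.6 in Sod2+/+ arrays. Of these markers 0 were called by limma (0 lower and 2 higher at an unadjusted p under 0.05, against 6.68% of all genes higher). In 3 of them every Sod2-/- value lay above every Sod2+/+ value, as in 1308 of all 18193 genes. The study reported a larger share of basophilic erythroblasts in Sod2-/- marrow, and its sorting gate pooled several erythroblast stages. Whether the sorted cells were matched in stage was not tested. Markers of other cells differed with genotype. Over all genes 4.47% were called lower, and 18.4% were lower at an unadjusted p under 0.05. Of 17 measured B cell markers 9 were lower and 0 higher, led by Cd79a (-1.78), Spib (-1.68) and Cd79b (-1.58), and the mean of the list lay between 5.13 and 5.32 in Sod2-/- arrays, against 5.92 to 6.08 in Sod2+/+ arrays. Of 15 neutrophil markers 0 were called, 13 had an unadjusted p under 0.05 and all were below 0. Their mean lay between 9.02 and 10.3 in Sod2-/- arrays, against 10.3 to 10.7 in Sod2+/+ arrays. Relative to the mean of the Sod2+/+ arrays, neutrophil markers averaged -0.14, -1.44 and -0.83 in Sod2-/- replicates 31, 35 and 39, while the 9 members averaged -0.36, -0.47 and -0.39. The part of neutrophil RNA in the members' decrease was not tested. Macrophage markers stood apart in Sod2-/- replicate 39 alone, at 1.22 above the Sod2+/+ mean. Of 6 early erythroid progenitor markers 1 was lower, Myb (-1.24), and of the macrophage, late erythroblast, T cell and megakaryocyte lists 0 were called, with 0 to 2 genes in each direction at an unadjusted p under 0.05. The B cell list was low in every Sod2-/- array, as the members were, and its part in their decrease was not tested.

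**Figure D5:**
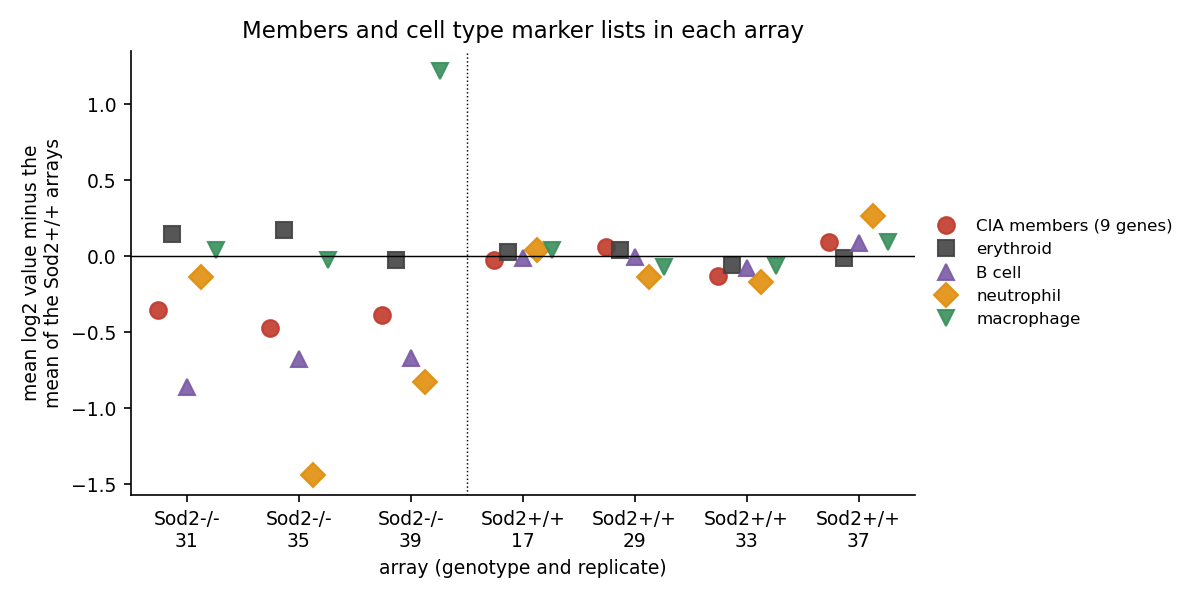
Mean log2 value of the 9 CIA genes and of 4 cell type marker lists in each array, minus the mean of the Sod2+/+ arrays, with Sod2-/- arrays left of the dotted line. The members lie between -0.47 and -0.36 in the Sod2-/- arrays, where the B cell markers are low in all 3, the neutrophil markers vary and the macrophage markers are high in replicate 39.

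RNA quality and array brightness were compared once. Array medians were 4.48 to 4.54 in Sod2-/- and 4.45 to 4.49 in Sod2+/+ arrays, and the 95th percentile was 8.20 to 8.42 in Sod2-/- and 8.42 to 8.71 in Sod2+/+ arrays. The log2 ratio of the 3′ to the 5′ probe set of Gapdh was 1.10 to 1.21 in Sod2-/- and 1.24 to 1.45 in Sod2+/+ arrays, without overlap, and that of beta-actin was 0.69 to 0.78 in Sod2-/- and 0.67 to 0.87 in Sod2+/+ arrays, with overlap. Under quantile normalization, which removes the difference in array brightness, the median of the members was -0.27, that of genes with means from 6 to 10 was -0.03 (against -0.23 as deposited), and Ciao1 (-0.41, adjusted p = 0.0222) and Nubp2 (-0.47, adjusted p = 0.0478) passed while Ciao2a (-0.53, adjusted p = 0.0637) and Ciapin1 (-0.15, adjusted p = 0.422) did not.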

How the data were processed

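Total RNA of 3 Sod2-/- and 4 Sod2+/+ erythroblast samples was hybridized to Affymetrix mouse genome arrays. The authors used robust multi-array averaging (RMA) and deposited its log2 output, and the submitters' notes name GCOS 1.3.037. The sources do not say whether another Sod2-/- array entered that run. Fluidics station and chip lot were read from the deposited array settings.

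After 64 control probe sets were left out, 45037 were fitted with limma 3.58.1 in R 4.3.3 (lmFit, eBayes, genotype alone), with Benjamini-Hochberg adjustment over all of them and a threshold of 0.05. All adjusted p-values are limma's unless named otherwise. The annotation matched 34945 probe sets to 1 gene, 932 to several and 9160 to none, and a gene is its brightest probe set matched to it alone. Paralog pairs were compared by an exact permutation test. Promoters and positions come from RefSeq tables of GRCm38.p6, in which 99.1% of genes were found. The fit was tested on simulated data with independent noise, without the brightness shift or the chip lots of these arrays. That test does not bear on the calls given here. Figures used matplotlib 3.10.9 in Python 3.11.15.

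The genes named are every member with its probe sets, from each pathway list those past the threshold or, with none, the 2 with the largest change, up to 3 per marker list, and the 3 nearest Ciao1. Neighbours on chromosome 17 and Tfrc were named after their values were seen. The members, lists and this rule were chosen with earlier results of these data known. Alternatives were 2 forms of the methods' t-test, trend with robust estimation, array weights, quantile normalization, centring, bright probe sets alone, an offset of 32, all probe sets of a gene averaged, station or lot as a block, and leaving out each array. Single stations, the lot of the Sod2+/+ arrays and the Glrx3 probe set shared with Gm12669 were added after the values were seen. The number of arrays limits the precision.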

Additional observations from a re-analysis of the deposited data

How the results depend on the processing

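All 4 called members and the other 4 below 0 kept their direction under every alternative tried, except Ciao2b, which was at 0.056 (adjusted p = 0.906) under quantile normalization. Glrx3 stayed above 0 with its own probe set and was at -0.58 (adjusted p = 0.0314) on the brightest probe set shared with Gm12669. The count of members called lower was 4 as reported. A t-test as in the methods, run on these arrays without a fold limit, gave 0 with equal and with unequal variances. These 2 forms called 2 and 0 genes lower in all. The study ran its t-test with another Sod2-/- array and a fold limit. It reported Ciao1 as lower in Sod2-/- cells by an unpaired t-test. The count was also 0 with an offset of 32 (0.649% of all genes called lower), with chip lot as a block (2.54%) and in fluidics station 2 alone. All Sod2+/+ arrays and Sod2-/- replicate 35 share a lot, and the other lot holds Sod2-/- arrays alone. The lot block and the fit within the shared lot therefore give the same contrast of Sod2-/- replicate 35 with the Sod2+/+ arrays. The count was 2 under quantile normalization (2.78%) and 2 with the station as a block (2.7%). Leaving out single arrays it ran from 0 to 3, with 0 without Sod2+/+ replicate 37, Sod2-/- replicate 35 or Sod2-/- replicate 39, where 0.605%, 0.352% and 1.3% of all genes were called lower. Array weights (3.79%) and centring (4.35%) gave 4, bright probe sets alone 5 (11.1%, against 4.47% as reported), and trend with robust estimation (4.47%) and the mean of all probe sets (4.11%) 3. The count of members called higher was 0 throughout. The median log2 fold change of the members, -0.43 as reported, was -0.27 under quantile normalization, -0.60 both with chip lot as a block and within the lot of all Sod2+/+ arrays, -0.28 with the mean of all probe sets, and from -0.51 to -0.38 leaving out single arrays. No paired analysis was possible because the genotypes share no replicate numbers; samples were sorted in parallel, but the sources do not say which belong together. Mms19 and Glrx3 were dim, which limits what their probe sets can show.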
